A study of Mus musculus with 15 samples.

Results

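The genes followed here code for secreted factors that start, steer or restrain the growth of blood and lymph vessels, with the receptor neuropilin-1. They are the 10 genes *Vegfb*, *Vegfc*, *Vegfd*, *Pgf*, *Ccbe1*, *Angpt1*, *Angptl4*, *Nrp1*, *Thbs1* and *Thbs2* among 35880 gene symbols measured in Lewis lung carcinoma cells. They were taken by name, and values of these samples were known when they were chosen. Their levels and differences are therefore given as a description with errors and without p-values. Where one of the 10 is said to be called, this marks only that its value passes the limits used for all genes, and is not independent evidence. All 10 passed the filter on low values, a sum of at least 3 CPM (read counts scaled to the same total in every sample) over the 15 samples, as did 14652 genes in total.

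LL2, the Lewis lung carcinoma line, comes from a mouse lung tumor that arose spontaneously, and the cells used here are its luciferase line LL2/Luc2. Messenger RNA was sequenced from the parental line (LL2 WT), from 3 clones edited with Cas9 and a guide against *Keap1* (*KEAP1* KO #1, #2 and #3, called clones #1, #2 and #3 below) and from 1 clone edited with a guide against *Nfe2l2* (*NRF2* KO), with 3 biologic replicates of each. All 5 lines grew untreated in the same medium with serum, and no other cell type was added. Each knockout line grew from a single sorted GFP+ cell and LL2 WT did not pass through such a sort, so the effect of the knockout and the history of a clone cannot be told apart for *NRF2* KO, and for *Keap1* only through what the 3 clones share. Nothing says how far the replicates of a line were cultured apart, and every SD and p-value measures only the spread between these samples.

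KEAP1 is the adaptor that hands the transcription factor NRF2, the product of *Nfe2l2*, to degradation, and NRF2 that escapes it binds antioxidant response elements in DNA. Vascular endothelial growth factors (VEGF) act on receptors of endothelial cells. VEGF-B and placental growth factor bind VEGFR1 (*Flt1*), whereas VEGF-C and VEGF-D drive the growth of lymph vessels through VEGFR3 (*Flt4*) after enzymes have cut them. CCBE1 promotes the cutting of VEGF-C. Angiopoietin-1 steadies vessels through the receptor TIE2 (*Tek*), neuropilins hold VEGF and class 3 semaphorins at the cell surface, and the thrombospondins TSP-1 and TSP-2 restrain vessel growth through receptors such as CD36 and CD47.

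The promoters of 4 of the genes are shown to give the sequence context of those described most fully: *Thbs2* and *Nrp1* differed from LL2 WT in the same direction in all 3 *KEAP1* KO clones, and *Vegfc* and *Pgf* have the promoters in which a match to the antioxidant response element was found. They are RefSeq sequences of GRCm38.p6, from 250 bases before to 50 bases after the start of a transcript, at chr17:14694213-14694512 on the minus strand for *Thbs2*, chr8:128358823-128359122 on the plus strand for *Nrp1*, chr8:54077282-54077581 on the plus strand for *Vegfc* and chr12:85177264-85177563 on the minus strand for *Pgf*. Capitals mark a match to TGACNNNGC on either strand.
Thbs2: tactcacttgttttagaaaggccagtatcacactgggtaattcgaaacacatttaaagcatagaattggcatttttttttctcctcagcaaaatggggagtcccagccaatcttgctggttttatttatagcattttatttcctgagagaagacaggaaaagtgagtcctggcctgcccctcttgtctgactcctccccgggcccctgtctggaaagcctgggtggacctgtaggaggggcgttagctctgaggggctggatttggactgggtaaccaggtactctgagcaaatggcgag
Nrp1: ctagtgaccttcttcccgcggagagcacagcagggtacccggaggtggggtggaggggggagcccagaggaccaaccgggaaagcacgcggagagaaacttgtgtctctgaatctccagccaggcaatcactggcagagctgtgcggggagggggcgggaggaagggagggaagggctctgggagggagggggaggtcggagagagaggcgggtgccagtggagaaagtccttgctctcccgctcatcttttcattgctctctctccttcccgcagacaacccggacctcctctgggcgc
Vegfc: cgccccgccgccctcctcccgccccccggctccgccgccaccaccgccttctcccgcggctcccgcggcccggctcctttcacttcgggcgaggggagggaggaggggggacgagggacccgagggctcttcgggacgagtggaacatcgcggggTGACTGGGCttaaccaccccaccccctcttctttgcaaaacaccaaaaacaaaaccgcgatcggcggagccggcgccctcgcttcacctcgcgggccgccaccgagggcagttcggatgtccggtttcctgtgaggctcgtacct
Pgf: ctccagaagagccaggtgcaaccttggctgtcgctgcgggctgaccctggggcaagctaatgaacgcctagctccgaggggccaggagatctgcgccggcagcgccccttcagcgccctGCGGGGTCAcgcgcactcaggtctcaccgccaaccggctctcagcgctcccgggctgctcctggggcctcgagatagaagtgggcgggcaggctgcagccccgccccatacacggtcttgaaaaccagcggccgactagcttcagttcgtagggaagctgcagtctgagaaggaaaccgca

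Promoter sequences were at hand for 6 of the 10 genes in 7 distinct windows, *Pgf* having 2. The letters TGACNNNGC of the antioxidant response element were found on either strand in 2 of the 7 windows, and 12.4% of 32851 mouse promoter windows of 300 bases hold them. TGANTCA, the AP-1 motif, which overlaps the former where a site reads as both, and ACGTG, the core of the hypoxia response element, were found in 0 of the 7 windows and in 7.81% and 19.6% of all windows. A match describes the letters of the window only, and the absence of a match says nothing about binding.

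The lines were first checked by their targeted genes and by marker genes. The mean of *Keap1* was 23.0 CPM for LL2 WT, 11.8 for clone #1, 5.53 for clone #2, 5.58 for clone #3 and 22.7 for *NRF2* KO. That of *Nfe2l2* was 186 CPM for LL2 WT, 119 for *NRF2* KO and 96.4, 123 and 116 for clone #1, clone #2 and clone #3, so that *NRF2* KO lay within the range of the clones. That of *Nqo1*, an NRF2 target, was 30.3 CPM for LL2 WT, 276 to 488 for the *KEAP1* KO clones and 9.82 for *NRF2* KO. Of the markers, *Krt8*, *Krt18* and *Vim* were expressed in all 15 samples, whereas the epithelial markers *Epcam* and *Cdh1* stayed below 0.1 CPM, and of the 5 lung markers *Scgb1a1* and *Sox2* were listed at 0 and *Nkx2-1* reached 0.037 CPM. *Sftpc* reached 0.422 CPM, and *Sftpb* had a mean of 0.0381 CPM for LL2 WT, 0.338, 0.448 and 0.682 for the 3 clones and 0.12 for *NRF2* KO. The 5 leukocyte markers summed to 2.06 to 4.54 CPM in LL2 WT and up to 37.1 CPM in clone #3. Most of this was *Cd68*, with a mean of 2.85 CPM for LL2 WT, 6.49, 13.8 and 22 for the 3 clones and 2.47 for *NRF2* KO. In any sample *Ptprc* reached at most 0.192 CPM, *Csf1r* 0.844 and *Cd3e* 0.035, and *Adgre1* was listed at 0. The part of these markers in the results was not tested. The replicate 3 libraries stood apart in all 5 lines: 20.5% of genes tested were highest and 1493 of 14652 were lowest in replicate 3 of every line. Among the 10 genes, *Thbs1*, *Thbs2*, *Vegfb* and *Pgf* were highest and *Angptl4* lowest in replicate 3 of all 5 lines. The labels do not say how replicate 3 differed, and the differences that are called are given with and without it, those of the pathway lists as counts.

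**Figure D1:**
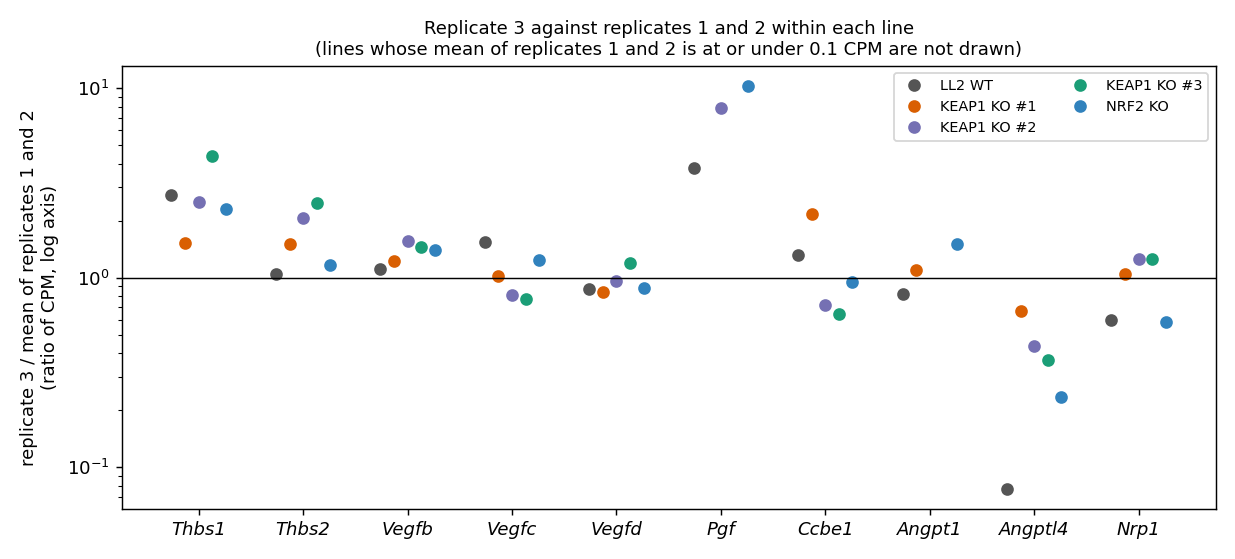
Ratio of the CPM in replicate 3 to the mean CPM of replicates 1 and 2, on a log axis, for each of the 10 genes (x axis) and 5 lines (colors). The ratios of Pgf that could be drawn were 3.78 or more and those of Angptl4 between 0.0773 and 0.67, while those of Vegfd stayed between 0.842 and 1.2.

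Differences from LL2 WT came from limma on log2(CPM + 0.1) over all 15 samples, and a gene is described as called at an adjusted p under 0.05 with an absolute log2 difference over 1. Of the 10 genes, 2 were called higher and 3 lower in clone #1, where 8.54% of all genes tested were called (4.55% higher and 3.99% lower). In clone #2, 1 was called higher and 4 lower, beside 13.7% of all genes (5.94% and 7.75%). In clone #3, 1 was called higher and 2 lower, beside 13.4% of all genes (6.09% and 7.34%). In *NRF2* KO 1 was called higher, beside 0.464% (0.0887% and 0.375%). Because values of these contrasts were known when the genes were chosen, nothing is read from these counts. The median log2 difference of the 10 genes was −0.26 in clone #1, −0.86 in clone #2, −0.70 in clone #3 and 0.06 in *NRF2* KO, beside medians over all genes of 0.11, 0.03, 0.02 and 0.04. With CPM rescaled by the median ratio the median over all genes in clone #1 became 0.01. The 4 contrasts share the LL2 WT samples.

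By position alone, all 3 samples of clone #1 lay above every LL2 WT sample for 3 of the 10 genes and below for 5, beside 37.0% of all genes without overlap (24.6% above and 12.4% below). The counts were 2 above and 4 below in clone #2, beside 42.0% (23.4% and 18.6%). They were 1 above and 3 below in clone #3, beside 40.0% (22.0% and 18.0%), and 1 above and 2 below in *NRF2* KO, beside 13.2% (8.68% and 4.53%).

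**Figure D2:**
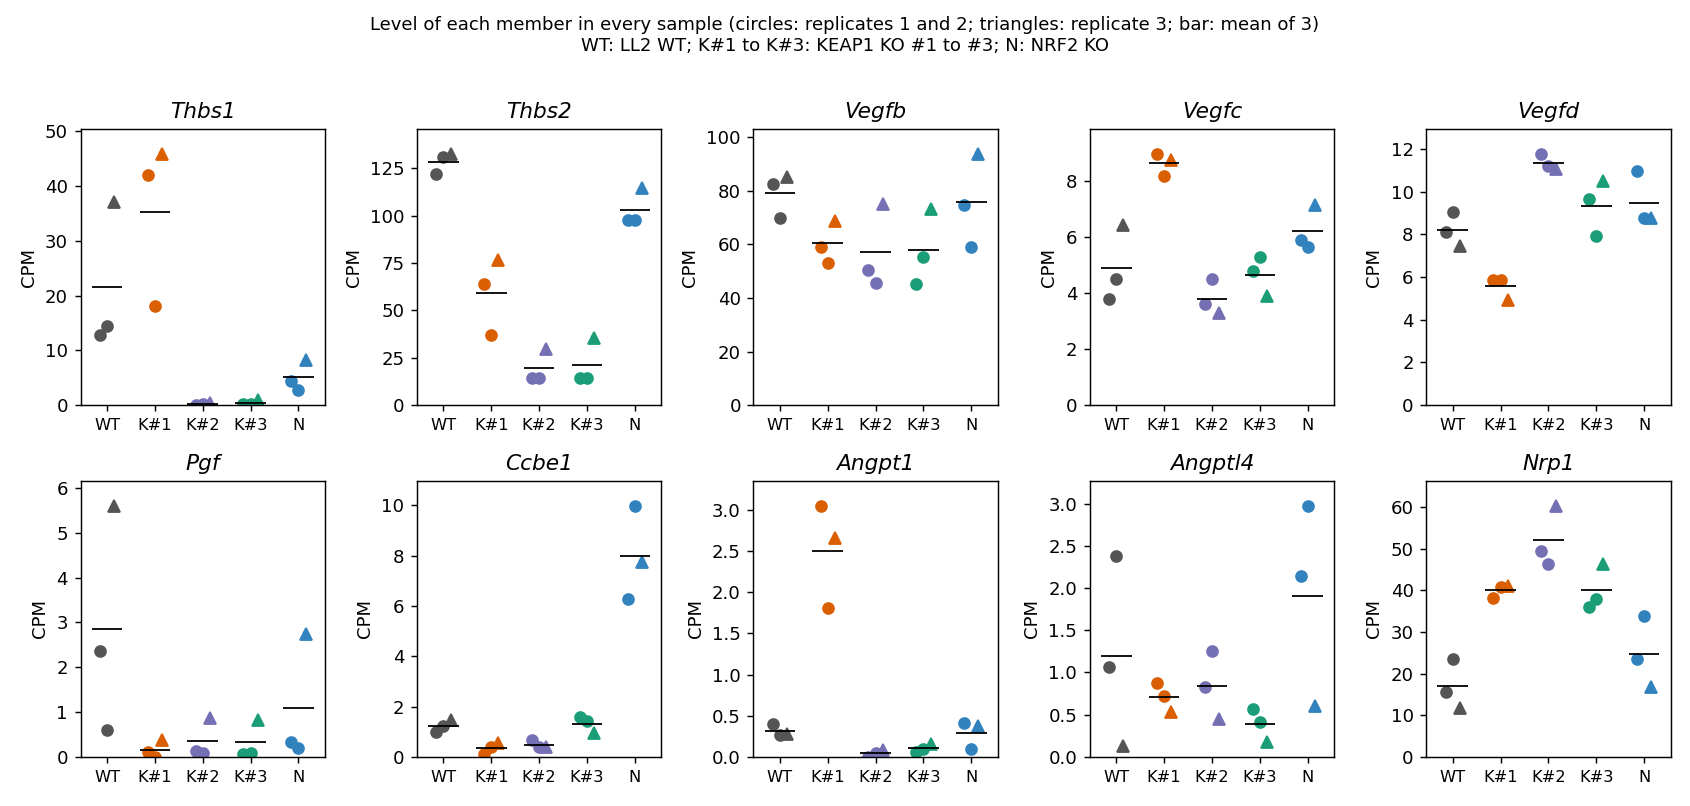
CPM of the 10 genes in each of the 15 samples, with circles for replicates 1 and 2, triangles for replicate 3 and a bar for the mean of 3 (WT is LL2 WT, K#1 to K#3 the KEAP1 KO clones, N the NRF2 KO clone). The mean of Thbs1 was 21.5 CPM for WT and 35.3 CPM for K#1 but 0.191 and 0.467 CPM for K#2 and K#3, Nrp1 was above LL2 WT in all 3 KEAP1 KO clones, and Ccbe1 was highest in NRF2 KO.

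**Figure D3:**
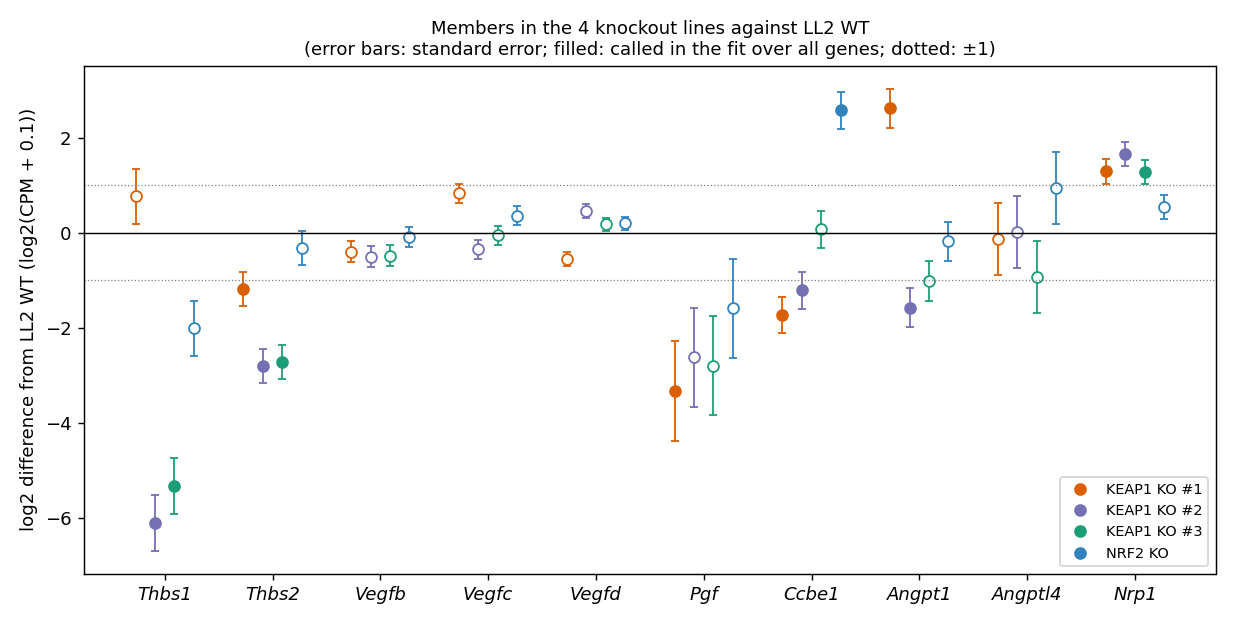
log2 difference of each gene (x axis) from LL2 WT in the 4 knockout lines (colors) on the log2(CPM + 0.1) scale, with standard errors as bars, filled points for genes called and dotted lines at 1 and −1. Thbs2 and Nrp1 have filled points on the same side for all 3 KEAP1 KO clones, while Angpt1 has filled points on opposite sides for KEAP1 KO #1 and #2.

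The VEGF family ligands followed here do not include *Vegfa*. Among them, *Vegfb* overlapped between most lines, and *Vegfd* was lowest in clone #1 and highest in clone #2. *Vegfc* was highest in clone #1, and *Pgf* was lower in the knockout lines with a wide spread. *Vegfb* (chromosome 19, 6982473 to 6987651 in GRCm38), the ligand of VEGFR1, read 82.6, 70.0 and 85.2 CPM in LL2 WT. Its mean was 60.4 ± 7.92 CPM (SD, n = 3) for clone #1, 57.1 ± 15.8 for clone #2, 57.8 ± 14.2 for clone #3 and 75.9 ± 17.4 for *NRF2* KO. The 3 clones overlapped one another, and only clone #1 lay wholly below LL2 WT. Their log2 differences from LL2 WT were −0.39, −0.50 and −0.48 (standard error 0.22 each), and without replicate 3 of every line they were −0.44, −0.66 and −0.61.

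*Vegfc* (chromosome 8, 54077606 to 54187096), the main lymphangiogenic ligand and the gene whose promoter holds the first of the capitals above, read 3.78, 4.49 and 6.43 CPM in LL2 WT. In clone #1 it read 8.95, 8.18 and 8.73 CPM, above every sample of the other lines. The log2 difference was 0.84 (standard error 0.20), which is not called. It was 1.04 and called in replicates 1 and 2 alone, and 1.05 and called without LL2 WT replicate 3 alone. In clone #2 and clone #3 the levels of 3.28 to 4.49 CPM and 3.89 to 5.28 CPM overlapped those of LL2 WT. *NRF2* KO read 5.90, 5.64 and 7.12 CPM. Clone #1 thus stood apart from the other clones, with clone #2 1.18 and clone #3 0.89 lower on the log2 scale (standard error 0.20 each).

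*Vegfd* (chromosome X, 164373378 to 164402650), the second ligand of VEGFR3, was lowest in the clone in which *Vegfc* was highest. LL2 WT read 8.11, 9.06 and 7.47 CPM. Clone #1 read 5.87, 5.87 and 4.94 CPM, below every sample of the other lines. Clone #2 read 11.8, 11.2 and 11.1 CPM, above every sample of the other lines. The log2 differences from LL2 WT were −0.55 in clone #1 and 0.47 in clone #2 (standard error 0.14 each), and neither is called, whereas the difference between the 2 clones, 1.02 (standard error 0.14), is. Clone #3 (7.91 to 10.5 CPM) and *NRF2* KO (up to 10.97 CPM) overlapped LL2 WT. The differences of clone #1 and clone #2 were −0.54 and 0.42 without replicate 3 of every line. The gap between these 2 clones then lies under the limit of 1, which it passes only narrowly with all samples.

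*Pgf* (chromosome 12, 85166635 to 85177790), the gene of placental growth factor, was near the floor of 0.1 CPM in most knockout samples. LL2 WT itself read 2.36, 0.611 and 5.60 CPM. Clone #1 read 0.103, 0 and 0.383 CPM, clone #2 0.127, 0.0943 and 0.870 CPM, and clone #3 0.0667, 0.0961 and 0.815 CPM. Replicate 3 was the highest sample in each line, and 4 of the 15 samples were at or under the floor. The log2 difference was −3.33 in clone #1 (called), −2.62 in clone #2 and −2.79 in clone #3, with a standard error of 1.05 each. It was −3.21, −2.65 and −2.87 without replicate 3 of every line, and then all 3 are called. The call in clone #1 was lost without LL2 WT replicate 1 (−3.23) or 3 (−2.63), without clone #1 replicate 1 (−3.29) or 2 (−2.78), with no filter on low values, and with only clone #1 and LL2 WT in the fit. In *NRF2* KO it read 0.343, 0.190 and 2.75 CPM, a difference of −1.59 (standard error 1.05) that is not called, and −1.88 without replicate 3 of every line. The calls in clone #2 and clone #3 were gained without LL2 WT replicate 2 (−3.42 and −3.59) and without replicate 3 of the clone itself (−3.36 and −3.57).

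*Ccbe1*, whose product promotes the cutting of VEGF-C, was the 1 gene of the 10 called in *NRF2* KO. It read 6.27, 9.98 and 7.76 CPM there and 1.01, 1.24 and 1.48 CPM in LL2 WT, so that all samples of *NRF2* KO lay above all others in the series. The log2 difference was 2.59 (standard error 0.38), with means that differ 6.45-fold. The value was 2.72 without replicate 3 of every line, where it is not called, and the call was also lost without *NRF2* KO replicate 2 (2.41) and in a fit of only these 2 lines. Clone #1 read 0.104, 0.390 and 0.537 CPM, and clone #2 0.669, 0.403 and 0.386 CPM, all below LL2 WT. Clone #3 read 1.57, 1.43 and 0.969 CPM and overlapped LL2 WT. The differences were −1.73 in clone #1 (called), −1.21 in clone #2 (called) and 0.08 in clone #3 (standard error 0.38 each). Without replicate 3 of every line they were −1.94, −0.97 and 0.39, and that of clone #2 is not called. The call in clone #2 was also lost on leaving out LL2 WT replicate 2 (−1.21) or 3 (−1.09), or clone #2 replicate 2 (−1.12) or 3 (−1.09). A pseudocount of 1 CPM moved the difference in clone #1 to −0.75 and in clone #2 to −0.59, neither called. The call in clone #1 was also lost with only clone #1 and LL2 WT in the fit. That in clone #2 was also lost with a pseudocount of 0.5 CPM (−0.82), with no filter and with quantile normalization. Of 17 alternatives, 15 kept the call in clone #1 and 8 that in clone #2. Exons of *Ccbe1* overlap those of *Gm15958* on the opposite strand, and the strand setting of the counting is not given in the sources used here.

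*Angpt1* (chromosome 15, 42424723 to 42676977), the ligand that activates TIE2, was high in clone #1 alone. LL2 WT read 0.403, 0.272 and 0.277 CPM. Clone #1 read 3.05, 1.80 and 2.66 CPM, above every sample of the other lines. Clone #2 read 0, 0.0471 and 0.0808 CPM, and clone #3 0.0661, 0.0964 and 0.162 CPM, all below LL2 WT and mostly at or under the floor. *NRF2* KO read 0.408, 0.0991 and 0.380 CPM and overlapped LL2 WT. The log2 difference in clone #1 was 2.62 (standard error 0.41), with means that differ 7.90-fold, and it was called under all 16 alternatives that gave a value. It was 2.50 without replicate 3 of every line. The values for clone #2 and clone #3, −1.58 (called) and −1.01, depend on the pseudocount, since the levels lie at the floor: with 1 CPM they were −0.34 and −0.25, and with 0.01 CPM −3.11 and −1.53. Without replicate 3 of every line they were −1.83 and −1.26, and the call in clone #2 was lost without its replicate 1 (−1.34). Exons of *Angpt1* overlap those of *Gm17473* on the opposite strand.

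*Angptl4* (chromosome 17, 33773750 to 33781830), a secreted inhibitor of lipoprotein lipase and a known target of PPAR and hypoxia signaling, was called in no line with all samples. LL2 WT alone ran from 0.133 to 2.39 CPM, and *NRF2* KO from 0.599 to 2.97 CPM. Clone #1 read 0.879, 0.720 and 0.536 CPM, clone #2 0.833, 1.25 and 0.452 CPM, and clone #3 0.572, 0.418 and 0.183 CPM. All 4 lines overlapped LL2 WT. The log2 differences were −0.13, 0.02, −0.93 and 0.94 in the order clone #1, clone #2, clone #3 and *NRF2* KO (standard error 0.76 each). In replicates 1 and 2 alone they were −0.92, −0.60, −1.53 and 0.63, and in replicate 3 alone 1.45, 1.24, 0.28 and 1.58. For the 3 *KEAP1* KO clones the sign thus turned between replicate 3 and the others. Without LL2 WT replicate 3 the value of clone #3 was −1.88 and called, and that of *NRF2* KO −0.01. The value of clone #3 in replicates 1 and 2 alone, −1.53, is called as well.

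*Nrp1* (chromosome 8, 128358604 to 128503363), the co-receptor of VEGF and of class 3 semaphorins, was higher in all 3 *KEAP1* KO clones. LL2 WT read 15.5, 23.6 and 11.7 CPM. Clone #1 read 38.1, 40.8 and 41.1 CPM, clone #2 49.5, 46.4 and 60.3 CPM, and clone #3 36.0, 38.0 and 46.4 CPM. Every one of these samples lay above every sample of LL2 WT and of *NRF2* KO, which read 23.4, 33.8 and 16.7 CPM. The log2 differences were 1.29, 1.67 and 1.29 (standard error 0.26 each), all called, and 0.54 in *NRF2* KO. Without replicate 3 of every line they were 1.04, 1.32 and 0.95, and the last is not called. Between clones, clone #2 was 0.37 above clone #1 (standard error 0.26), and clone #3 differed from clone #1 by −0.0028. In LL2 WT and *NRF2* KO replicate 3 was the lowest sample, and in the *KEAP1* KO clones the highest. The related *Nrp2* is described with the receptors.

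Of the thrombospondins, *Thbs1* in clone #2 and clone #3 had the largest differences from LL2 WT among the 10 genes, while *Thbs2* in those clones differed less than *Pgf* did in clone #1. *Thbs1* (chromosome 2, 118111876 to 118127133), the gene of TSP-1, read 12.8, 14.5 and 37.1 CPM in LL2 WT. Clone #1, at 41.9, 18.01 and 45.8 CPM, overlapped LL2 WT. In clone #2 the levels were 0.107, 0.148 and 0.318 CPM, and in clone #3 0.190, 0.248 and 0.963 CPM. Those 6 samples lay below every other sample of the series. *NRF2* KO lay between, with 4.41, 2.75 and 8.22 CPM, below every LL2 WT sample. The log2 difference from LL2 WT was 0.77 in clone #1, −6.11 in clone #2 (called), −5.33 in clone #3 (called) and −2.01 in *NRF2* KO (standard error 0.58 each). The difference in *NRF2* KO is called with replicate 3 as a term in the model.

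The calls of *Thbs1* in clone #2 and clone #3 held under all 17 alternatives, with log2 differences from −6.71 to −4.08 in clone #2 and from −5.91 to −3.82 in clone #3, the smallest with a pseudocount of 1 CPM. Without replicate 3 of every line they were −5.92 and −5.43, and those of clone #1 and *NRF2* KO were 1.01 and −1.94, neither called. The 2 clones differed from clone #1 by −6.88 and −6.11 and from each other by 0.77 (standard error 0.58 each), so that the difference was not shared by the *KEAP1* KO clones. The mesenchymal markers *Vim*, *Cdh2*, *Fn1* and *Zeb1* together summed to 3590 to 5830 CPM in LL2 WT, 3260 to 4600 CPM in *NRF2* KO, and 1730 to 2180, 1560 to 1950 and 1640 to 2110 CPM in clone #1, clone #2 and clone #3. Most of these sums was *Vim*, with means of 4290 CPM for LL2 WT, 1680 to 1850 for the clones and 3570 for *NRF2* KO. The mean of *Fn1* was 236 CPM for LL2 WT, 92.1, 19.9 and 22.9 for the 3 clones and 164 for *NRF2* KO. That of *Cdh2* was 6.73 CPM for LL2 WT and went both ways, to 10.8, 0.351 and 11.7 for the 3 clones and 10.4 for *NRF2* KO, and that of *Zeb1* lay between 17.7 and 25.5 CPM in all 5 lines. Their part in the levels of the thrombospondins was not tested. Fewer cells of a kind and less RNA per cell cannot be told apart in such bulk samples. Exons of *Thbs1* overlap those of *Gm29233* on the opposite strand.

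*Thbs2* (chromosome 17, 14665500 to 14694235), the gene of TSP-2, was lower in all 3 *KEAP1* KO clones. LL2 WT read 122, 131 and 132 CPM (128 ± 5.52). Clone #1 read 64.0, 37.2 and 76.3 CPM, clone #2 14.4, 14.4 and 29.8 CPM, and clone #3 14.1, 14.6 and 35.5 CPM. All 9 samples lay below every sample of LL2 WT and of *NRF2* KO, and clone #2 and clone #3 lay below clone #1. The log2 differences were −1.18, −2.80 and −2.72 (standard error 0.36 each), all called, and −0.32 in *NRF2* KO, which read 97.7, 97.5 and 114 CPM. Without replicate 3 of every line they were −1.37, −3.13 and −3.13. Clone #2 and clone #3 differed by 0.08, and kept the call under all 17 alternatives. That of clone #1 was kept in 11 of 17: it was lost with no filter on low values and without LL2 WT replicate 1 (−1.21), 2 (−1.17) or 3 (−1.16) or clone #1 replicate 1 (−1.27) or 2 (−0.88).

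Across the 15 samples the genes fell into no single pattern. *Thbs1* went with *Angpt1* (Pearson r of log2(CPM + 0.1) 0.84) and with *Thbs2* (0.828), and *Angpt1* went with *Vegfc* (0.812) and against *Vegfd* (−0.868). *Pgf* went with *Vegfb* (0.894), both of which were highest in replicate 3 of every line. *Nrp1* went against *Thbs2* (−0.732). These values describe 15 samples of 5 lines, which share a line and a replicate number, and so carry no p-value.

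Of 12505 other genes with at least 1 CPM in at least 1 line, those most alike in pattern over the 15 samples were *Fam20b* (r = 0.979), *Frzb* and *Sccpdh* for *Thbs1*, and *Clmp* (0.986), *Bcl2* and *Cc2d2a* for *Thbs2*. *Ccdc88c* (0.966), *Prps2* and *Gm6013* were most alike to *Nrp1*, and *Neurl1b* (0.958), *Per2* and *Unc50* to *Angpt1*. For *Pgf* they were *Cntnap1* (0.986), *Agpat4* and *Calcoco1*, and for *Ccbe1* *Man2a1* (0.921), *Cldn12* and *Lhx6*.

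The receptors on which these ligands act were expressed unevenly. *Flt1* (VEGFR1) had a mean of 4.86 ± 0.763 CPM for LL2 WT and of 2.74 to 5.55 CPM for the knockout lines. *Kdr* (VEGFR2), *Flt4* (VEGFR3) and *Tek* (TIE2) stayed below 0.1 CPM in all 15 samples. *Nrp2*, the co-receptor of VEGF-C, ran from 43.1 to 52.1 CPM in LL2 WT, from 70.4 to 91.7 CPM in the *KEAP1* KO clones and from 61.8 to 74.6 CPM in *NRF2* KO. The log2 difference of *Nrp2* was 0.84, 0.63 and 0.79 in the 3 clones and 0.49 in *NRF2* KO (limma, adjusted p = 8.76e-05, 0.000451, 7.22e-05 and 0.0485), and every sample of the 4 lines lay above LL2 WT. That of *Flt1* was −0.46, −0.61 and −0.81 in the 3 clones (adjusted p = 0.106, 0.0295 and 0.00695). Since these lie under the limit of 1, limma called 0 of the 2 receptors tested in any line, although 1 was higher and 1 lower in each clone, and 1 higher in *NRF2* KO, at an unadjusted p under 0.05. Nothing is read from the counts at that unadjusted limit, for which the share of all genes is not given here. The endothelial markers *Pecam1*, *Cdh5*, *Tie1*, *Emcn* and *Vwf* summed to 2.76 to 4.01 CPM in LL2 WT, 3.38 to 5.92 CPM in clone #1, 6.14 to 8.07 CPM in clone #2, 6.38 to 8.26 CPM in clone #3 and 4.25 to 7.56 CPM in *NRF2* KO, and *Emcn* was listed at 0. The 4 lymphatic endothelial markers summed to at most 0.246 CPM in any sample.

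The other genes of these pathways were taken from general knowledge in 8 lists of 76 genes, of which 54 passed the filter. In clone #1, 8 rose and 8 fell at an adjusted p under 0.05 with a log2 difference over 1 (limma, adjusted over all genes tested). In clone #2, 10 rose and 9 fell, in clone #3 11 rose and 7 fell, and in *NRF2* KO 0 rose and 1 fell by limma, with 7 higher and 3 lower at an unadjusted p under 0.05. The share of all genes at that unadjusted limit is not given here, so nothing is read from the unadjusted counts. The called genes were 29.6%, 35.2%, 33.3% and 1.85% of the 54, beside 8.54%, 13.7%, 13.4% and 0.464% of all genes tested in clone #1, clone #2, clone #3 and *NRF2* KO. The lists were drawn up with earlier results of these data known, so nothing is read from that gap, and the counts for single lists below stand beside the same shares of all genes. The median log2 difference over the 54 genes was 0.09, 0.12, 0.19 and −0.02, beside the medians over all genes given above. The adjusted p-values below are from the same limma fit. Without replicate 3 of every line 51 of these 54 calls were kept and none turned its direction, and those lost were *Cd36* in clone #2 (0.83, adjusted p = 0.179 by limma) and *Plxna2* in clone #1 and clone #3 (0.97 and 0.96, under the limit of 1).

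**Figure D4:**
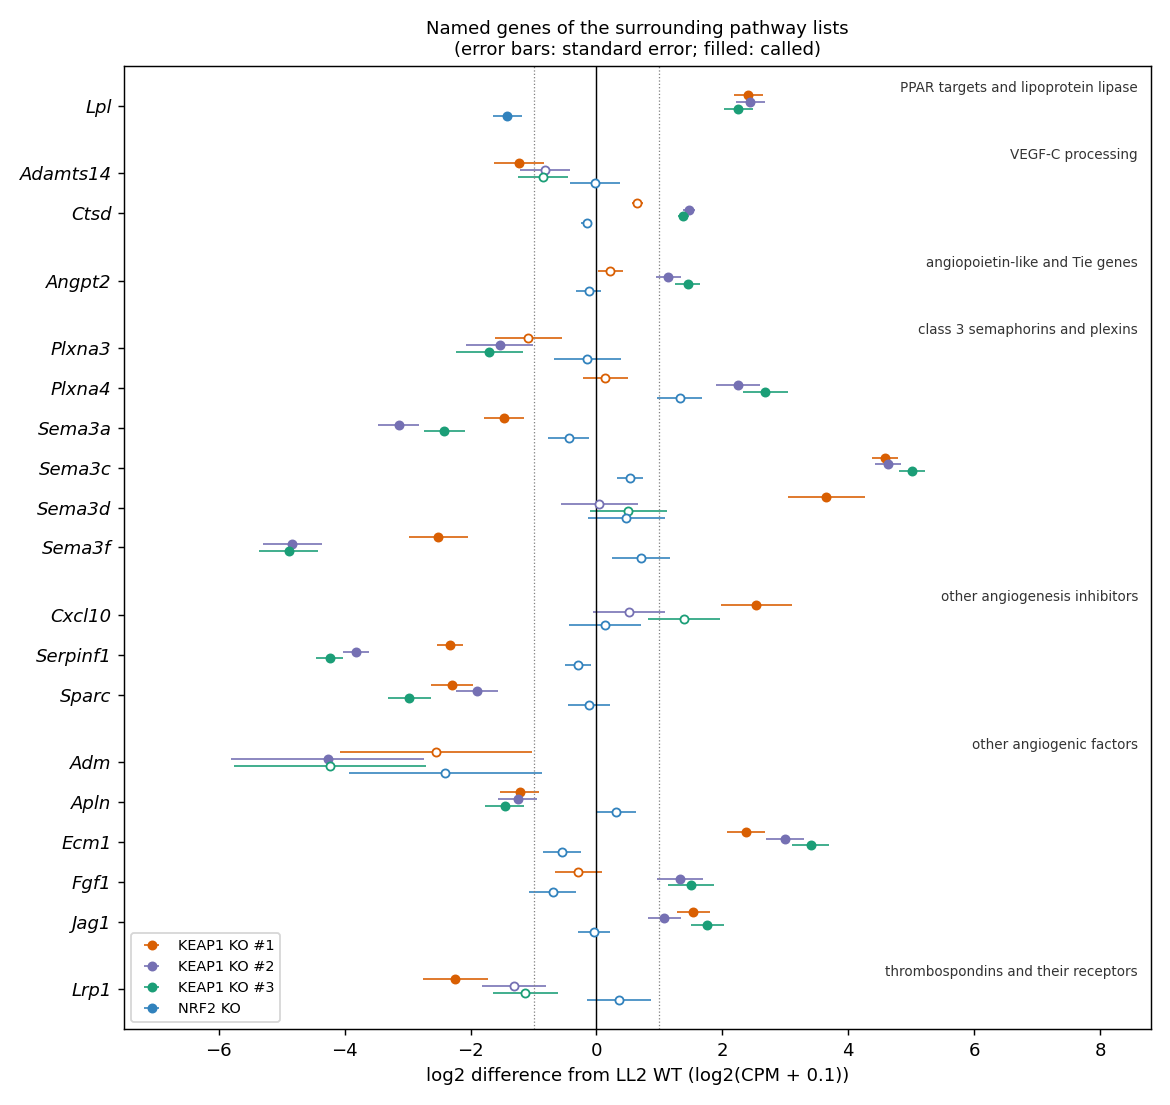
log2 difference from LL2 WT (x axis, log2(CPM + 0.1)) of the named genes of the lists (y axis, grouped by list) in the 4 knockout lines (colors), with standard errors as bars and filled points for genes called. Sema3c, Ecm1, Jag1 and Lpl lie to the right and Sema3a, Sema3f, Serpinf1, Sparc and Apln to the left in all 3 KEAP1 KO clones, and Lpl is the only filled point of NRF2 KO. Cd36, listed at 0 in LL2 WT, is not drawn.

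Class 3 semaphorins, which bind neuropilins and plexins, changed in both directions. Of 11 list members tested, 3 rose and 2 fell in clone #1 (4.55% and 3.99% of all genes), 2 rose and 3 fell in clone #2 (5.94% and 7.75%), and 3 rose and 3 fell in clone #3 (6.09% and 7.34%). *Sema3c* went from a mean of 0.302 CPM to 9.53, 9.86 and 12.8 CPM in the 3 clones, a rise of 4.58, 4.63 and 5.01 on the log2 scale (adjusted p = 1.81e-08, 7.74e-09 and 4.08e-09). *Sema3a*, a ligand of the NRP1 complex that repels growing axons and vessels, fell from a mean of 64.1 CPM, with log2 differences of −1.47, −3.14 and −2.42 (adjusted p = 0.00609, 1.41e-05 and 0.000111). *Sema3f*, which binds NRP2, fell as well, with log2 differences of −2.51, −4.83 and −4.89 (adjusted p = 0.00202, 7.72e-06 and 6.49e-06), with means of 0.908, 0.108 and 0.0968 CPM against 5.28 CPM. With a pseudocount of 0.01 CPM the adjusted p of *Sema3f* in clone #1 was 0.108.

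Other members of this list moved in some clones. *Sema3d* rose in clone #1, to a mean of 2.47 CPM from one of 0.0959 CPM, which is under the floor (adjusted p = 0.00105). *Plxna4*, a semaphorin receptor, rose by 2.25 in clone #2 and 2.68 in clone #3 on the log2 scale (adjusted p = 0.000401 and 0.000103) and read 0.14 in clone #1 (adjusted p = 0.817). In *NRF2* KO it read 1.32 (adjusted p = 0.158), which is not called, with every sample above LL2 WT. *Plxna3* fell in clone #2 (−1.54) and clone #3 (−1.70), with adjusted p = 0.042 and 0.0275. Both calls of *Plxna3* were lost with no filter, with only the line and LL2 WT in the fit and without LL2 WT replicate 1 or 3, with an adjusted p of up to 0.155 in clone #2 and 0.124 in clone #3. They were also lost on leaving out replicate 1 or 2 of the clone itself. *Plxna2*, named after its values were seen, rose by 1.13 in clone #1 and 1.16 in clone #3 (adjusted p = 0.00055 and 0.000263).

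Among the 6 thrombospondin genes and receptors tested, 1 rose and 1 fell in clone #1, 1 rose in clone #2 and 1 rose in clone #3, beside 8.54%, 13.7% and 13.4% of all genes called in either direction. *Cd36*, the receptor through which TSP-1 restrains vessels, was listed at 0 in all samples of LL2 WT and *NRF2* KO. It read 2.49, 1.64 and 2.67 CPM in clone #1 (adjusted p = 2.95e-05), 0.0270, 0.149 and 0.450 CPM in clone #2 (adjusted p = 0.0402) and 1.2, 0.879 and 2.00 CPM in clone #3 (adjusted p = 5.85e-05). The call in clone #2 was lost under 10 of 16 alternatives, among them each LL2 WT replicate and clone #2 replicate 2 or 3 left out, with an adjusted p of up to 0.298. *Lrp1*, the receptor that clears thrombospondins, fell by 2.24 on the log2 scale in clone #1 (adjusted p = 0.00744) and read −1.31 in clone #2 and −1.13 in clone #3 (adjusted p = 0.0671 and 0.109).

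Of 8 other angiogenesis inhibitors tested, 1 rose and 2 fell in clone #1, 3 fell in clone #2 and 2 fell in clone #3, beside the same shares of all genes. *Serpinf1*, the gene of pigment epithelium-derived factor, fell from a mean of 454 CPM to 89.5, 32.2 and 23.8 CPM, log2 differences of −2.32, −3.82 and −4.24 (adjusted p = 9.19e-06, 4.79e-08 and 1.7e-08). *Sparc*, a matrix protein that binds growth factors, fell from 288 CPM, with log2 differences of −2.29, −1.90 and −2.97 (adjusted p = 0.000402, 0.000912 and 2.62e-05). *Cxcl10*, a chemokine that restrains vessel growth, rose by 2.54 in clone #1 (adjusted p = 0.00652) from 0.254 to 2.33 CPM, and read 0.52 in clone #2 and 1.39 in clone #3 (adjusted p = 0.515 and 0.0788). The remaining called gene, *Timp3*, named after its values were seen, fell by 1.84 in clone #2 (adjusted p = 0.0397). It read 0.144, 0.00719 and 0.581 CPM there and 0.470, 0.831 and 1.44 CPM in LL2 WT. The 2 lines thus overlapped, and the lowest value lies under the floor of 0.1 CPM.

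Of 14 other angiogenic factors tested, 2 rose and 2 fell in clone #1, 4 rose and 3 fell in clone #2, and 4 rose and 2 fell in clone #3, again beside 8.54%, 13.7% and 13.4% of all genes. *Ecm1*, a secreted matrix protein, rose by 2.37, 3.00 and 3.40 on the log2 scale (adjusted p = 0.000146, 1.14e-05 and 3.35e-06) from 5.75 CPM. The Notch ligand *Jag1* rose by 1.54, 1.08 and 1.76 (adjusted p = 0.00104, 0.0067 and 0.000228). *Fgf1* rose by 1.33 in clone #2 and 1.5 in clone #3 (adjusted p = 0.0153 and 0.00777), from a mean of 0.781 CPM to 2.17 and 2.43 CPM. *Apln*, the gene of the vessel growth peptide apelin, fell from 27.3 CPM, with log2 differences of −1.22, −1.25 and −1.46 (adjusted p = 0.0134, 0.00825 and 0.00317). *Adm*, the gene of adrenomedullin and a hypoxia target, ran up to 116 CPM in LL2 WT (57.4 ± 53.5) and fell by 4.27 in clone #2 (adjusted p = 0.0483, standard error 1.53), beside −4.23 in clone #3 (adjusted p = 0.0511). Its replicate 3 was 4.18 to 9.30 times the mean of replicates 1 and 2 in every line, and without replicate 3 the value in clone #2 was −4.48 and called. Named after their values were seen, the growth factor *Hgf* fell in all 3 clones (−2.40, −2.84 and −3.04, adjusted p = 0.00239, 0.000464 and 0.000265) and the ephrin *Efna1* rose by 1.19 in clone #2 and 1.22 in clone #3 (adjusted p = 0.00419 and 0.00351). The mean of *Hgf* was 0.891 CPM for LL2 WT and 0.0674, 0.0260 and 0.00667 CPM for the 3 clones. The clones thus lay under the floor of 0.1 CPM, and the size of the fall of *Hgf* depends on the pseudocount.

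Some of these calls rested on single libraries or on the pseudocount. That of *Adm* in clone #2 was lost without LL2 WT replicate 1 or 3 or clone #2 replicate 1 or 2, with an adjusted p of up to 0.159. That of *Apln* in clone #1 was lost without LL2 WT replicate 3 (−0.98) or clone #1 replicate 2 (−1.02). *Fgf1* in clone #2 lost its call without LL2 WT replicate 3 (1.12) or clone #2 replicate 2 (1.02). *Jag1* in clone #2 stood at 0.86 without LL2 WT replicate 2 and at 1.00 without clone #2 replicate 1, neither of which is called. With a pseudocount of 1 CPM *Fgf1* stood at 0.80 in clone #2 and 0.93 in clone #3, and *Jag1* in clone #2 at 0.76, none of them called. *Jag1* in clone #2 also lost its call with a pseudocount of 0.5 CPM (0.91).

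Among the lists that frame VEGF-C processing and the angiopoietins, few genes were called. *Ctsd*, the protease cathepsin D, rose by 1.47 in clone #2 and 1.38 in clone #3 on the log2 scale (adjusted p = 1.44e-07 and 2.22e-07). It read 0.65 in clone #1 (adjusted p = 0.000271), under the limit of 1. *Adamts14*, a procollagen protease, fell by 1.23 in clone #1 (adjusted p = 0.041), a call that was lost under 6 of 17 alternatives, including LL2 WT replicate 1 (−1.21) or 3 (−1.01) or clone #1 replicate 1 (−1.1) or 2 (−1.09) left out. These were the called genes among 5 tested of the VEGF-C list. *Angpt2*, the context-dependent antagonist of angiopoietin-1, rose by 1.14 in clone #2 and 1.45 in clone #3 (adjusted p = 0.000796 and 0.000115) and read 0.22 in clone #1 (adjusted p = 0.455), as the 1 called gene of 3 tested. Without LL2 WT replicate 3 the value in clone #2 was 0.93 and not called.

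Of 5 PPAR targets and lipoprotein lipase genes tested, *Lpl* was called in all 4 lines and the others in none, although *Cpt1a* and *Plin2* were higher in clone #2 (0.81 and 0.58 on the log2 scale, adjusted p = 0.000898 and 0.00345) and *Cpt1a* in clone #3 (0.42, adjusted p = 0.0392). *Lpl*, the lipase that ANGPTL4 inhibits, read 4.01, 4.15 and 5.45 CPM in LL2 WT. It rose by 2.41, 2.44 and 2.25 on the log2 scale in the 3 *KEAP1* KO clones (adjusted p = 1.67e-05, 6.89e-06 and 1.2e-05). It fell by 1.42 in *NRF2* KO (adjusted p = 0.0129), where it read 1.23, 1.34 and 2.53 CPM. Leaving out LL2 WT replicate 3 (adjusted p = 0.0674), *NRF2* KO replicate 1 (adjusted p = 0.0665) or *NRF2* KO replicate 2 (adjusted p = 0.0752) ended the call in *NRF2* KO, as did a fit of only these 2 lines (adjusted p = 0.463).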

How the data were processed

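Messenger RNA of 15 samples, 3 of each of 5 LL2 lines, was measured by RNA sequencing. The authors pseudo-aligned the reads with kallisto to mouse cDNA sequences, summed them to genes and deposited CPM, in which the counts of every sample are scaled to add up alike. The methods name GRCm38.p6 as the reference and the submitters' processing notes GRCm39 with bcl2fastq 1.9.0. The deposited values are fractional, so no read counts could be recovered, and how deeply each library was sequenced is unknown. Going by the mean depth in the methods, 0.1 CPM stands for roughly 3 reads and served as the floor, for counting error only. CPM are not per length, so levels were not compared between genes. The entry without a gene symbol (0.0214% to 0.0491% of CPM) was left out. No pair of samples was identical.

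For the 14652 genes whose CPM added up to 3 or more, limma 3.58.1 in R 4.3.3 was run on log2(CPM + 0.1) (a mean per line over all 15 samples, contrasts with LL2 WT, empirical Bayes with a trend, Benjamini-Hochberg adjustment over all genes tested). The procedure was tested on simulated data with independent noise in every sample. These held no shift shared by replicate 3, so the test says nothing about how the fit handles such a shift. The 10 genes, the pathway lists and the tests were chosen with earlier results of these data known. Named were all 10 genes, and of the 8 lists (VEGF receptors, angiopoietin-like and Tie genes, VEGF-C processing, thrombospondins and their receptors, class 3 semaphorins and plexins, PPAR targets, other angiogenic factors, other inhibitors) the called genes with at least 1 CPM in a line, up to 3 per direction and list with the largest difference. Also named were 5 receptors, the 3 genes most alike to each called gene, and *Keap1*, *Nfe2l2* and *Nqo1*. Gene positions are those of GENCODE vM21 (GRCm38), and promoters those of RefSeq. Of the stretches of 31 bases in the transcripts of the 10 genes, 0% to 0.533% were shared with other genes. Other pseudocounts, filters, scalings, sample sets and replicates left out were tried as alternatives, and those on replicate 3 were added after seeing the data.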

Additional observations from a re-analysis of the deposited data

Results flagged for a closer look

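In 5 genes, lines lay wholly on opposite sides of LL2 WT. Between clones, limma called the gaps of *Vegfd* and *Angpt1* given here, as a description of genes chosen with their values known. That of *Vegfd* lies under the limit of 1 without replicate 3 of every line. The gaps that involve *NRF2* KO were not themselves tested, although the differences from LL2 WT behind them are called, except that of *Sema3f* in *NRF2* KO (0.71). Values of *Angpt1* and *Sema3f* in some clones are near the floor of 0.1 CPM. *Vegfd* was below LL2 WT in all samples of clone #1 and above it in all samples of clone #2, a gap of −1.02 on the log2 scale (the first minus the second). *Ccbe1* was below LL2 WT in clone #1 and in clone #2 and above it in *NRF2* KO, with gaps of −4.32 and −3.80. *Angpt1* was above LL2 WT in clone #1 and below it in clone #2 and in clone #3, with gaps of 4.20 and 3.64. *Lpl* was above LL2 WT in clone #1, clone #2 and clone #3 and below it in *NRF2* KO, with gaps of 3.83, 3.86 and 3.67. *Sema3f* was below LL2 WT in the same 3 clones and above it in *NRF2* KO, with gaps of −3.22, −5.54 and −5.60. With 3 samples a side, 13.2% to 42.0% of all genes did not overlap LL2 WT in a given line.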

How the results depend on the processing

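Among the 10 genes and the list genes named by the rule above, no difference from LL2 WT turned its direction where it was called. The genes named after their values were seen were refitted only without replicate 3 of every line. Of the alternative counts, 115 stayed within 1.5 times the value reported while 21 did not. The number of the 10 genes called in clone #2 was 3 in place of 5 with a pseudocount of 1 or of 0.5 CPM. In clone #1 it was 3 with no filter, 3 with a filter at a mean of 1 CPM and 3 with only clone #1 and LL2 WT in the fit. In *NRF2* KO it was 0 with only *NRF2* KO and LL2 WT and 0 with replicate 3 of every line left out, and 2 with replicate 3 as a term in the model. The number of pathway genes called in *NRF2* KO was 2 with quantile normalization, 0 with only *NRF2* KO and LL2 WT, and 2 with replicate 3 as a term. The filter at a mean of 1 CPM leaves out *Pgf* and *Angpt1*, both called in clone #1. With fewer samples in the fit fewer degrees of freedom remain. Otherwise the cause was not tested. Leaving out 1 replicate at a time gave 3 to 5, 4 to 5, 3 to 4 and 0 to 1 of the 10 genes called in clone #1, clone #2, clone #3 and *NRF2* KO, and 14 to 18, 14 to 19, 17 to 22 and 0 to 2 pathway genes.

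The labels give the same replicate numbers to all lines. Samples of the same number deviated from their line means with correlations of 0.086 to 0.459 in clone #1 with LL2 WT and 0.0587 to 0.437 in clone #2. The range was −0.0188 to 0.468 in clone #3 and 0.0715 to 0.631 in *NRF2* KO. In each line the lowest value was that of replicate 1, while replicates 2 and 3 gave 0.267 to 0.631. As replicate 1 reached at most 0.086, the number was not taken to pair the samples. What replicates 2 and 3 share between lines thus remains in the spread of the main fit. With the replicate block, 2 of the 10 genes and 3 pathway genes were called in *NRF2* KO, *Pgf* was called in clone #2 and clone #3 and *Thbs1* in *NRF2* KO (−2.01). The unknown depth limits what can be said of levels at or under 0.1 CPM, which concerns *Pgf* in 4 and *Angpt1* in 6 of 15 samples.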
